A study of Homo sapiens with 6 samples.

Results

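Of the 25277 gene rows in an RNA-seq table of 2 human lymphoma lines, 9 were taken here: the signalling regulators RGS1, RGS2 and RGS13, the homing receptors CXCR4, CXCR5, CCR7, S1PR1 and GPR183, and the transcription factor KLF2. They were chosen by gene symbol, and RGS1 heads the group because it was lower in all 4 NR4A1 guide libraries than in the control of the same line. That difference therefore describes how RGS1 was chosen and is given without a test. All 9 passed the filter, a 6-library mean no lower than 1 FPKM (FPKM are fragment counts that the authors scaled by transcript length and by the fragments mapped in the library), RGS13 only through the libraries labelled Rec-1 sgRNA, so that its contrasts involving them were fixed by the filter and are given without a test. Jeko and Rec-1 are established lines of mantle cell lymphoma, a cancer of mature B cells. Per the labels, every library came from cells transduced with a Cas9 vector and given doxycycline for 48 h. Each line had 1 library with the empty CRISPR/Cas9 vector (control), 1 with NR4A1 sgRNA 1 and 1 with NR4A1 sgRNA 2. The sgRNA is a guide that directs Cas9 to cut NR4A1, a nuclear receptor. Neither control was replicated, and nothing in the labels says that the 2 guides of a line are separate cultures, so p-values measure the spread between these libraries only.

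Homing receptors are G protein-coupled receptors that steer lymphocytes along gradients of chemokines or lipids, mostly through Gi proteins. RGS proteins speed the hydrolysis of GTP by the G protein alpha subunit and so shorten the signal from such receptors. RGS1 and RGS13 are known in B cells for dampening responses to the ligands of CXCR4 and CXCR5. CXCR4 responds to CXCL12 and holds B cells in bone marrow and germinal centre dark zones, CXCR5 draws them to CXCL13 in follicles, and CCR7 draws them to CCL19 and CCL21 in the T zone. S1PR1 senses sphingosine-1-phosphate and lets lymphocytes leave tissue, GPR183 (EBI2) senses oxysterols and positions B cells at follicle edges, and KLF2 is a transcription factor that maintains S1PR1 in lymphocytes.

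RGS1 (chromosome 1, 192544893 to 192549154), RGS13 (192605268 to 192629441) and RGS2 (192778169 to 192781405) lie side by side on the plus strand of 1q31 in GRCh37, the build that the submitters' processing notes call hg19, and are protein-coding. The other genes, also protein-coding, are CXCR4 (chromosome 2, 136871919 to 136876747, minus strand), CXCR5 (chromosome 11, 118754601 to 118768496, plus), CCR7 (chromosome 17, 38710021 to 38721724, minus), S1PR1 (chromosome 1, 101702421 to 101709269, plus), GPR183 (chromosome 13, 99946793 to 99959653, minus) and KLF2 (chromosome 19, 16435637 to 16439496, plus). The promoters of the 3 RGS genes are shown because these neighbours had unlike levels in the libraries below, and that of S1PR1 because its transcript was almost absent from 2 libraries. Each sequence is the 250 bases before the start site from RefSeq (GRCh38.p14, plus strand), and 8 of the 9 genes had an entry. Motif matches on either strand are in capitals.
RGS1, chr1:192575523-192575772: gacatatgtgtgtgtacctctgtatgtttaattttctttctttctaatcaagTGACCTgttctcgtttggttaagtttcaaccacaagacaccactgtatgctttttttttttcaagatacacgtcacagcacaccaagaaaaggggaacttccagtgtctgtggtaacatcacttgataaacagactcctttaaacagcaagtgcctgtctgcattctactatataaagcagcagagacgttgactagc
RGS13, chr1:192635897-192636146: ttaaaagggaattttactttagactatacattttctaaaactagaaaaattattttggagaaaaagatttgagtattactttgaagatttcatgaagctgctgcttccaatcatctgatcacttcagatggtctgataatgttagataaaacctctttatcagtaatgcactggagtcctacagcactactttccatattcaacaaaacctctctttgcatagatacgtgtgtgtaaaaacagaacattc
RGS2, chr1:192808789-192809038: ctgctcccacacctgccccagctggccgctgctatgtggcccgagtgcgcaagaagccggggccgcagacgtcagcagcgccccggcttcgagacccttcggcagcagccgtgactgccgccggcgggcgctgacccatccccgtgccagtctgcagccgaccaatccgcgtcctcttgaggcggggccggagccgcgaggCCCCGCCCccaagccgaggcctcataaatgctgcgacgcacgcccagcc
S1PR1, chr1:101236769-101237018: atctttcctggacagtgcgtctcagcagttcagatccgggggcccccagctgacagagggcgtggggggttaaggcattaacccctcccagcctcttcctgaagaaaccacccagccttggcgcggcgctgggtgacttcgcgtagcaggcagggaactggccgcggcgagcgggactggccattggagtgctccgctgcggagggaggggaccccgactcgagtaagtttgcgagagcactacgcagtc
The letters reported were AAAGGTCA (the NBRE bound by NR4A1), AGGTCA (the nuclear receptor core, contained in the NBRE), GGGTGGGG (a KLF form) and GGGCGGGG (a GC box, which can overlap the KLF form). An NF-kB form was searched too, and its result is not reported here. The NBRE letters were in 1.05% of all 35116 promoter windows and in none of those of the 8 genes. The RGS1 window held AGGTCA on the minus strand, from -198 to -193 relative to the start (12.1% of windows hold it). The RGS2 window held a GC box from -49 to -42 (21.8%). The windows of RGS13 and S1PR1 held no match to the reported letters. G and C made up 39.2% of the RGS1 window, 32.0% of that of RGS13 and 72.8% of that of RGS2.

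The libraries did not all group by line. Over the 11400 tested genes, which are not independent replicates, Pearson's r was 0.941 between the controls of both lines, but 0.757 and 0.762 between the library labelled Rec-1 control and Rec-1 sgRNA 1 and 2. CCND1, the cyclin D1 gene that defines most mantle cell lymphoma, ranged from 441.7 to 814.6 FPKM over Jeko and the Rec-1 control and was 0.696 and 0.592 FPKM with Rec-1 sgRNA 1 and 2. NR4A1, the targeted gene, had 5.99, 3.89 and 4.44 FPKM in the Jeko control, sgRNA 1 and sgRNA 2, and 11.6, 27.4 and 12.7 in the same order in Rec-1, so with the guides its mRNA was lower in Jeko and not in Rec-1. FPKM show neither editing nor protein. The B-cell markers MS4A1, CD79A, CD79B, PAX5 and CD22 were all above 3 FPKM in every library. Of 5 T-cell markers in the table, CD3D, CD3E and CD3G made up nearly all of a sum of 102 FPKM in Rec-1 sgRNA 1 and 119.8 in Rec-1 sgRNA 2, while CD2 was at most 0.0288 and CD8A was listed at 0 there; the sum was between 2.69 and 5.69 elsewhere. The 5 monocyte markers summed to 12.9 and 15.0 FPKM in these 2 libraries and at most 2.21 elsewhere, nearly all of it CD68, with CD14 at most 0.0531, and the 4 NK-cell markers to 6.70 and 7.21 against at most 2.07, nearly all of it NKG7, with GNLY listed at 0. Granulocyte markers were listed at 0 in all libraries, and the summed stromal, epithelial and endothelial markers were at most 3.65 FPKM. Every comparison of a Rec-1 guide library with its labelled control carries this difference between libraries, and values are given for each line apart.

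RGS1 was the only gene of the 9 that lay below the own-line control in all 4 guide libraries, whereas its neighbours did not share that pattern. RGS1 stood at 11.7 FPKM in the Jeko control, 3.92 in Jeko sgRNA 1 and 4.01 in Jeko sgRNA 2. In Rec-1 it stood at 22.3 FPKM in the control, 1.46 in sgRNA 1 and 1.69 in sgRNA 2. Both controls were thus above all guide libraries, the 2 guides of a line lay close together, and with guides 1 and 2 the Jeko levels were 33.6% and 34.3% of control, the Rec-1 levels 6.56% and 7.59%. On the log2(FPKM + 1) scale, which understates the change of low genes, the differences from control were −1.37, −1.34, −3.24 and −3.11, with a mean of −2.26 (SD 1.05, n = 4). The 2 differences of a line share 1 control, so this SD mostly reflects the gap between the lines and not a spread between replicates. A difference below control in all 4 guide libraries was seen at 2403 of the 11400 tested genes (21.1%), and all 4 lay below both controls, as for RGS1, at 16.3%.

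RGS2, a regulator that acts mainly on Gq, had 13.9 FPKM in control Jeko cells, 4.95 with sgRNA 1 and 3.79 with sgRNA 2. In Rec-1 it had 5.61 FPKM in the control, 24.96 in sgRNA 1 and 27.9 in sgRNA 2. RGS2 thus lay with RGS1 in Jeko, at 35.6% and 27.3% of control, and opposite to it in Rec-1, at 445% and 497%. Both guides were below control in Jeko at 36.4% of tested genes, and above control in Rec-1 at 41.8%. RGS13, which is known from germinal centre B cells, was listed at 0 in both Jeko guide libraries, and had 0.0293 FPKM in control Jeko and 0.187 in control Rec-1 cells, but 17.8 in each Rec-1 guide library. Its transcript was therefore near the bottom of the scale in 4 libraries, and its mean Jeko difference was −0.042 on the log2(FPKM + 1) scale.

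**Figure D1:**
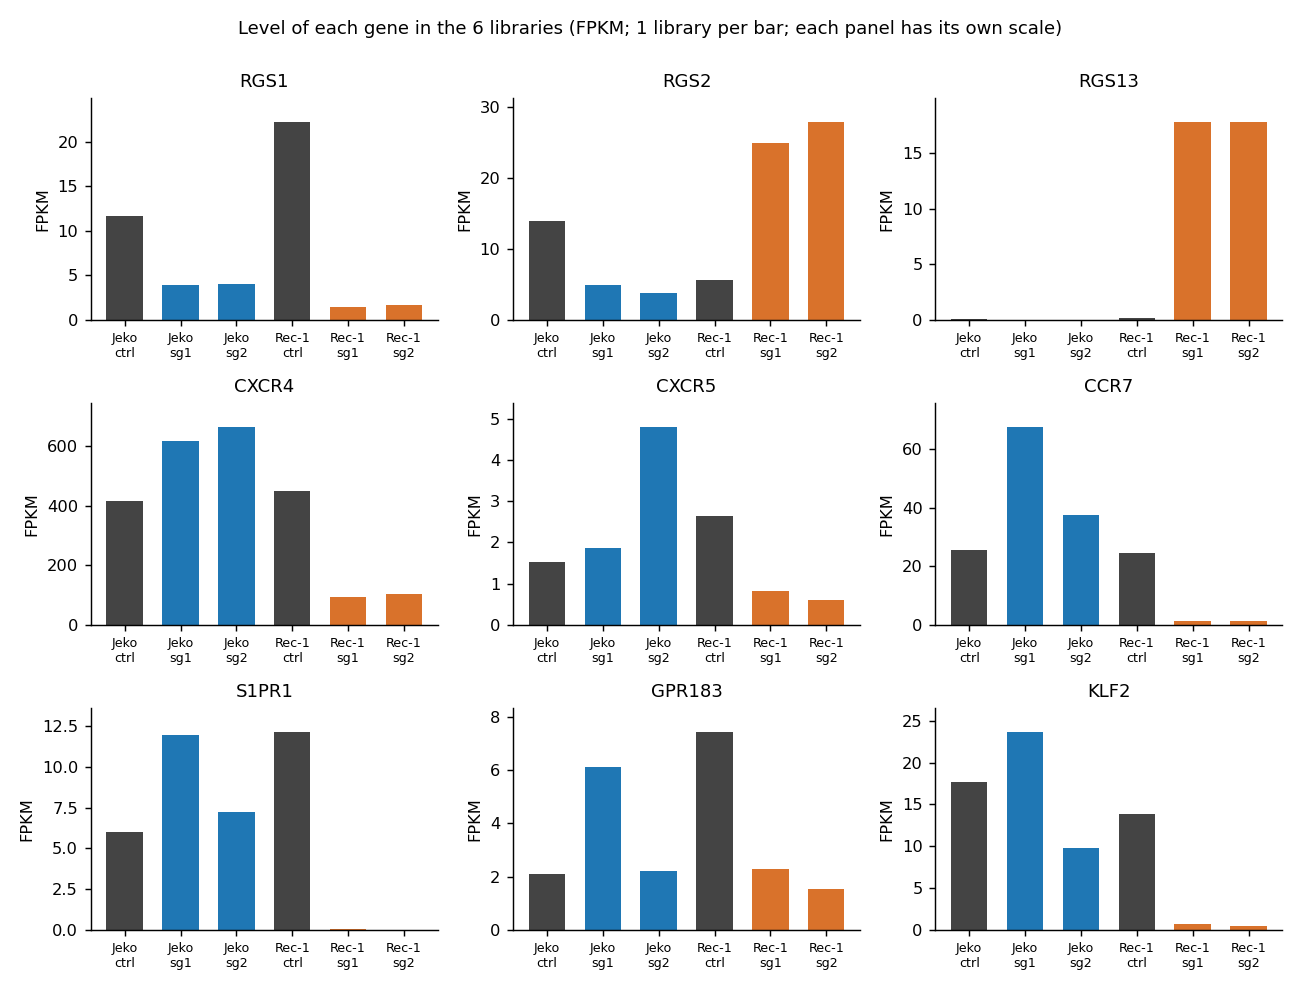
FPKM of the 9 genes (y axis, a separate scale in each panel) in the 6 libraries (x axis), 1 library per bar, with controls in grey, Jeko guides in blue and Rec-1 guides in orange; there are no error bars because each bar is 1 library. RGS1 is highest in the controls, at 11.7 and 22.3 FPKM, while RGS13 is high only in the Rec-1 guide libraries, at 17.8 FPKM in each.

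The receptors went the other way from RGS1 in Jeko and the same way in Rec-1. All 5 receptors were above the Jeko control with both guides, a pattern seen at 36.9% of tested genes, and all 5 and KLF2 were below the Rec-1 control with both guides, as were 43.1% of tested genes. The joint pattern of the receptors, above control in Jeko and below it in Rec-1 with both guides, was seen at 10.8% of tested genes. CXCR4 was the most abundant of the 9, with 415.98 FPKM in control Jeko cells, 619.7 with sgRNA 1 and 665.5 with sgRNA 2. It had 449.98 FPKM in control Rec-1 cells, 93.6 in Rec-1 sgRNA 1 and 101.8 in Rec-1 sgRNA 2. The Jeko guide libraries therefore exceeded both controls, and the Rec-1 guide libraries lay below every other library, at 20.8% and 22.6% of their control.

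CCR7 was 25.6 FPKM in the Jeko control, 67.5 in Jeko sgRNA 1 and 37.4 in Jeko sgRNA 2. Rec-1 cells had 24.6 FPKM of CCR7 without a guide, 1.18 with sgRNA 1 and 1.31 with sgRNA 2. The 2 controls were alike, the Jeko guides were above both but unlike each other (264% and 146% of control), and the Rec-1 guides kept 4.78% and 5.32%. CXCR5 was low throughout, at 1.52, 1.87 and 4.81 FPKM in the Jeko control, sgRNA 1 and sgRNA 2, and 2.65, 0.820 and 0.610 in the same order in Rec-1. Jeko sgRNA 1 lay between the 2 controls, so the Jeko guides and the controls overlapped at CXCR5. Both Jeko guides lay above both controls at CXCR4 and CCR7 only among the 5 receptors, against 30.7% of tested genes, and below both at RGS2, against 27.9%, as well as at RGS1, where the choice of the gene bears on it.

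S1PR1 was 5.98 FPKM in the Jeko control, 11.9 in Jeko sgRNA 1 and 7.22 in Jeko sgRNA 2, against 12.2 in the Rec-1 control. In Rec-1 sgRNA 1 it was 0.0177 FPKM and in Rec-1 sgRNA 2 it was listed at 0. The other 4 libraries thus overlapped with each other, and only the Rec-1 guide libraries stood apart. GPR183 ran from 1.53 FPKM in Rec-1 sgRNA 2 to 7.44 in the Rec-1 control, with 2.08 in the Jeko control, 6.14 in Jeko sgRNA 1, 2.20 in Jeko sgRNA 2 and 2.28 in Rec-1 sgRNA 1. Its 2 controls differed by 1.46 on the log2(FPKM + 1) scale and its Jeko guides by 1.16, which is more than the mean Jeko difference from control of 0.63. KLF2 was 17.7, 23.7 and 9.78 FPKM in the Jeko control, sgRNA 1 and sgRNA 2, so the Jeko guides lay on either side of their control. In Rec-1 KLF2 was 13.9 FPKM in the control and 0.701 and 0.506 with the guides, or 5.05% and 3.65%. KLF2 and S1PR1 were both nearly absent from the same 2 libraries. Both were higher in Jeko sgRNA 1 than in Jeko sgRNA 2, as were RGS2, CCR7 and GPR183.

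**Figure D2:**
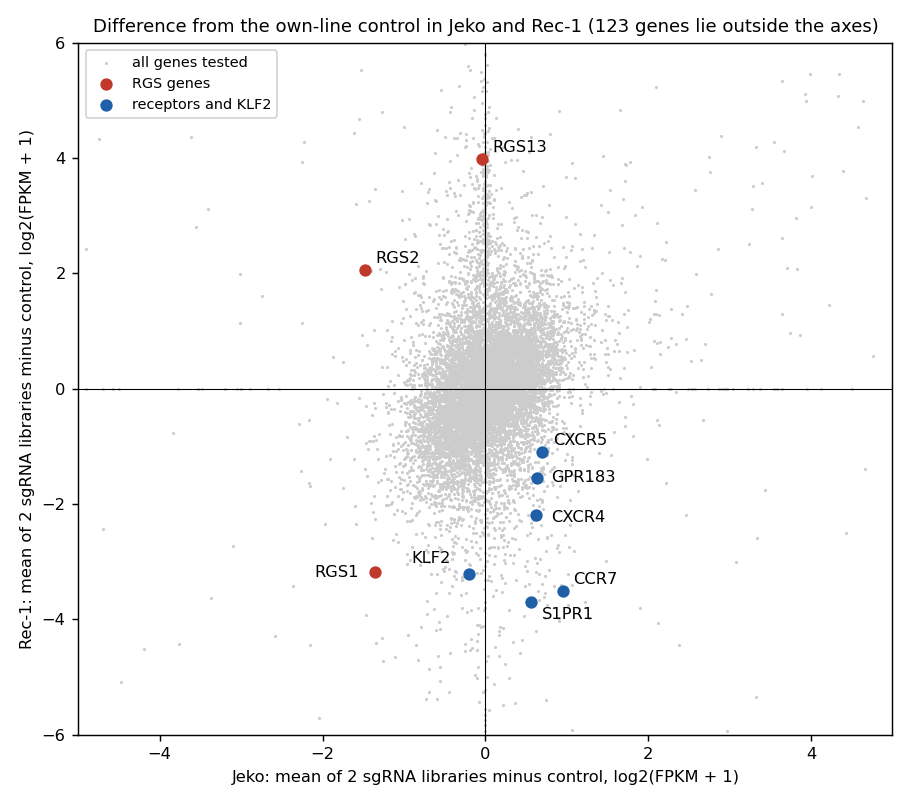
Mean difference of the 2 guide libraries from the own-line control on the log2(FPKM + 1) scale, Jeko on the x axis and Rec-1 on the y axis, for all tested genes (grey), the 3 RGS genes (red) and the receptors and KLF2 (blue); 123 genes lie outside the axes. RGS1 sits at −1.35 and −3.18, RGS2 at −1.48 and 2.05, and the 5 receptors lie right of 0 and below 0.

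Tested over both lines with limma, 0 of the 7 genes other than RGS1 and RGS13 passed for the sgRNA effect at an adjusted p under 0.05, against 0.246% of tested genes. In the same limma fit 0 of the 7 had an unadjusted p under 0.05, against 2410 of the 11400 tested genes. The log2 differences ran from −1.71 at KLF2 (SE 0.73, limma adjusted p 0.25) to 0.29 at RGS2 (SE 0.77, limma adjusted p 0.832). These means join opposite differences. Without the library labelled Rec-1 control, which leaves the Jeko comparison, the log2 difference was −1.48 for RGS2, 0.63 for CXCR4, 0.95 for CCR7 and 0.56 for S1PR1. It was 0.70 for CXCR5, 0.63 for GPR183 and −0.20 for KLF2. Without the Jeko control, which leaves the Rec-1 comparison, it was 2.05 for RGS2, −2.19 for CXCR4, −3.51 for CCR7 and −3.71 for S1PR1. In that fit it was −1.09 for CXCR5, −1.55 for GPR183 and −3.22 for KLF2. Each of these fits holds 1 control library, so the differences are given without a test.

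The difference from control differed between the lines at 4 of these 7 genes by limma's interaction test, against 6.94% of tested genes. RGS2 (interaction 3.53, SE 0.34, limma adjusted p 0.016) was higher relative to control in Rec-1 than in Jeko, as were 3.68% of tested genes. CXCR4 (−2.82, SE 0.29, limma adjusted p 0.0188), S1PR1 (−4.27, SE 0.46, adjusted p 0.0207) and CCR7 (−4.46, SE 0.58, adjusted p 0.0287) were lower, as were 3.25%. KLF2 (−3.02, SE 0.77, limma adjusted p 0.127), GPR183 (−2.19, adjusted p 0.22) and CXCR5 (−1.79, adjusted p 0.233) did not pass. With a pseudocount of 0.1 the interaction was −7.45 for S1PR1, which passed. The interaction estimate for RGS13, with no test, was 4.03, and 6.34 with that pseudocount. Leaving out any of the 4 guide libraries ended the call for RGS2, CXCR4 and CCR7 (limma adjusted p from 0.0511 to 0.164). For S1PR1 only the fit without Jeko sgRNA 1 kept it (limma adjusted p 0.0492). The line and the standing of the Rec-1 control cannot be told apart in this test, and it cannot be fitted without that control.

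A comparison that uses neither control is that of the 2 Rec-1 with the 2 Jeko guide libraries. RGS2 was higher in Rec-1, as were 12.6% of tested genes, and CXCR4, CCR7, S1PR1 and KLF2 were lower, as were 13.1%. Thus 5 of the 7 genes passed, against 25.7% of tested genes. The difference was 2.36 for RGS2 (SE 0.21, limma adjusted p 0.00472). It was −2.71 for CXCR4 (SE 0.16, limma adjusted p 0.00192), −4.52 for CCR7 (SE 0.34, adjusted p 0.00311) and −3.35 for S1PR1 (SE 0.26, adjusted p 0.00347). KLF2 differed by −3.35 (SE 0.45, limma adjusted p 0.0139). CXCR5 (−1.25, SE 0.38, limma adjusted p 0.0799) and GPR183 (−0.73, SE 0.44, adjusted p 0.282) did not pass. With a pseudocount of 0.1 the difference was −6.44 for S1PR1. The values of RGS1 in these libraries were among those that chose it, and its difference, −0.95, is given with no test, as is that of RGS13, 4.23. CXCR4 passed whichever guide library was left out. RGS2, CCR7, S1PR1 and KLF2 did not pass without Rec-1 sgRNA 1 or without Rec-1 sgRNA 2 (limma adjusted p from 0.0531 to 0.113). CXCR5 passed without Jeko sgRNA 1 (0.0194).

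**Figure D3:**
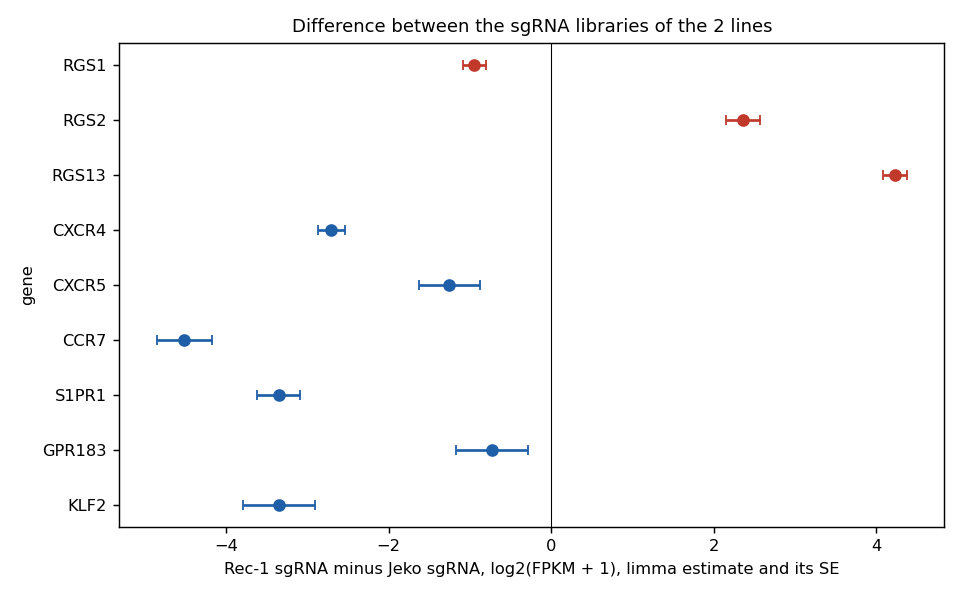
Difference of the Rec-1 from the Jeko guide libraries (x axis, log2(FPKM + 1), limma estimate with its SE as bars; 2 libraries per line) for each of the 9 genes (y axis), RGS genes in red, receptors and KLF2 in blue. RGS2 and RGS13 lie at 2.36 and 4.23, and the other 7 genes between −4.52 and −0.73. RGS1, chosen by its values, and RGS13, which passed the filter only through the Rec-1 guides, are shown without a test. Their bars do not stand for one.

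Because FPKM are scaled by length, levels of receptor and regulator can be set against each other within a library. Per FPKM of RGS1 there were 35.7 FPKM of CXCR4 in the Jeko control, 158.2 in Jeko sgRNA 1 and 166.2 in Jeko sgRNA 2. In Rec-1 there were 20.2 in the control, 64.05 in sgRNA 1 and 60.3 in sgRNA 2. The ratio was therefore higher with all 4 guides, in Jeko with more CXCR4 and less RGS1, and in Rec-1 with less of both. For CCR7 the ratio was 2.19, 17.2 and 9.33 in Jeko (control, sgRNA 1, sgRNA 2), but 1.10, 0.804 and 0.774 in Rec-1. For S1PR1 the Jeko ratios were 0.512, 3.05 and 1.80, and the Rec-1 ratios 0.546, 0.0121 and 0. The CXCR5 ratio, at 0.130 in the Jeko control, was 0.478 with sgRNA 1 and 1.20 with sgRNA 2, and, at 0.119 in the Rec-1 control, 0.561 and 0.361. The GPR183 ratio, at 0.178 in the Jeko control, was 1.57 and 0.548 with its guides, and, at 0.334 in the Rec-1 control, 1.56 and 0.906. The ratios of CXCR5 and GPR183 were thus higher with all 4 guides, as for CXCR4, while those of CCR7 and S1PR1 were higher with the Jeko guides and lower with the Rec-1 guides. These ratios share RGS1, which was chosen for being low with the guides, and they are a description.

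The spread between guides showed which genes were steady within a line. On the log2(FPKM + 1) scale the 2 Jeko guides differed by 0.026 at RGS1 and 0.10 at CXCR4, but by −0.66 at S1PR1, −0.84 at CCR7, −1.16 at GPR183, −1.20 at KLF2 and 1.02 at CXCR5 (guide 2 minus guide 1). At S1PR1, GPR183, KLF2 and CXCR5 this exceeded the mean Jeko difference from control. The 2 Rec-1 guides differed by at most 0.37 in size at any of the 9 genes, with GPR183 the farthest apart. The 2 controls differed by 0.88 at RGS1 and −1.17 at RGS2 (Rec-1 minus Jeko), with the Jeko guides below both, and by 0.11 at CXCR4 and −0.054 at CCR7.

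Genes were also ranked by likeness to RGS1. Profiles of log2(FPKM + 1) over the 6 libraries were centred on their own mean, and the largest gap to RGS1 in any library was taken, a small gap meaning a like pattern. Tested genes with names starting with MIR, SNOR, SCARNA, RNU, RNY, LOC or LINC were left out. Among the rest, the 5 nearest were ETV4 (gap 0.44), GPRC5C (0.47), RHEBL1 (0.47), CCDC42B (0.53) and CALML6 (0.56), and 82 genes had a gap of at most 1. ETV4, an ETS transcription factor, had 3.64, 0.958 and 0.595 FPKM in Jeko (control, sgRNA 1, sgRNA 2) and 4.997 in control Rec-1 cells, and both Rec-1 guide libraries listed it at 0. RHEBL1, a small GTPase related to RHEB, had 12.0, 6.33 and 7.42 FPKM in Jeko and 19.9, 1.79 and 2.25 in Rec-1. None of the other 8 genes studied here came as near: their gaps ran from 1.41 at CXCR4 to 4.07 at RGS13.

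No other RGS gene that passed the filter lay below its control in all 4 guide libraries. Of the 21 RGS genes listed, 12 passed the filter, RGS9, RGS13 and RGS20 only through the Rec-1 guide libraries. The filter thus set the direction of these in Rec-1, and they are described by their values. Among the 9 that remain, RGS1 was lower in all 4 guide libraries, which is how it was chosen. Of the others, 0 were lower in all 4 (21.1% of tested genes) and 0 were higher in all 4 (21.0%). RGS1 is given no test, and 0 of the others passed limma for the sgRNA effect, against 0.246% of tested genes. RGS10, the most abundant, had 49.5, 38.3 and 23.6 FPKM in Jeko (control, sgRNA 1, sgRNA 2) and 42.3, 127.6 and 131.3 in Rec-1. RGS9, RGS12 and RGS20 were picked after their values were seen. RGS9, best known from the retina and striatum, was at most 0.0766 FPKM outside the Rec-1 guide libraries, which had 35.6 and 20.3, and RGS20 was at most 0.0515 FPKM outside these libraries and had 1.96 and 4.40 in them. RGS12 ran the other way, from 3.18 to 6.001 FPKM in the first 4 and 0.0932 and 0.0533 in the Rec-1 guides. The interaction estimate for RGS12 was −2.01, given without a test because the gene was picked by its values. RGS16, a target of several activation signals, was 10.4, 10.96 and 26.6 FPKM in Jeko and 29.8, 10.8 and 15.8 in Rec-1. With both guides RGS16 was thus above control in Jeko, though barely with sgRNA 1, and below it in Rec-1. The same joint pattern was seen at 10.8% of tested genes. Between the guide libraries of the 2 lines RGS2 was higher in Rec-1 by limma, as were 12.6% of tested genes. RGS10 and RGS12 were chosen after their values were seen. Their differences, 2.07 and −2.65, are given without a test.

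**Figure D4:**
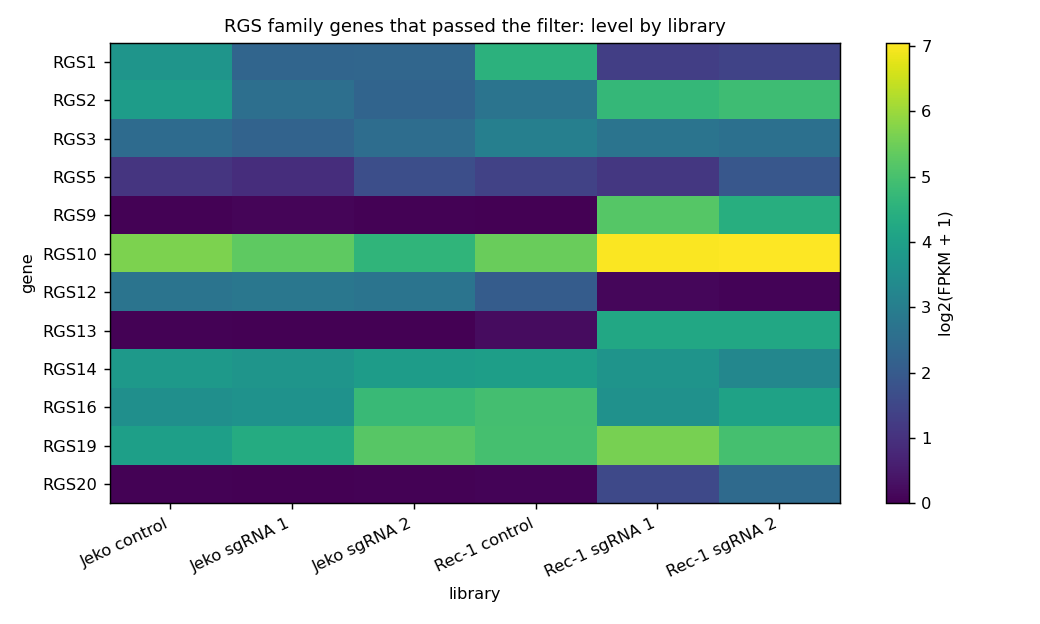
Level of the 12 RGS genes that passed the filter (rows) in each library (columns), as log2(FPKM + 1) by colour. RGS1 is brightest in the 2 controls, at 11.7 and 22.3 FPKM, while RGS9, RGS13 and RGS20 are bright only in the Rec-1 guide libraries.

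The remaining genes of the migration pathway were taken from fixed lists. Leaving aside genes that passed the filter only through the guide libraries of a line, 0 of the genes tested in any list passed limma for the sgRNA effect. The counts of genes above or below control in all 4 guide libraries stand against 21.0% above and 21.1% below over all tested genes. GNG2, GRK5, ITGAL, ITGAX, DOCK8 and MEF2C passed the filter only through the Rec-1 guide libraries, so the filter set their direction in Rec-1. They are left out of the counts of genes above or below control in all 4. Of 23 chemokine receptors 6 were tested, 4 of them without ACKR4 and CCRL2. Among these 4, 0 were above and 0 below control in all 4 guide libraries. With both Jeko guides 3 (CXCR4, CXCR5 and CCR7) were higher than control (36.9% of all tested genes). The others tested were CCR10, ACKR4 and CCRL2, of which ACKR4 and CCRL2 passed the filter only through the Rec-1 guides and CCR10 only through the Jeko guides, and ACKR4, a scavenger of CCL19 and CCL21, was at most 0.747 FPKM outside the Rec-1 guides and 17.1 and 10.5 in them. Of the 8 homing chemokines, the ligands, 0 passed the filter. Among 13 lipid-guided receptors 7 were tested and 2 were higher in all 4 guide libraries, against 21.0% of all tested genes. These were S1PR2, which confines B cells to germinal centres through G alpha 13, and GPR132. S1PR2 was 1.24, 2.22 and 2.45 FPKM in Jeko and 0.883, 8.76 and 6.84 in Rec-1, so no control overlapped a guide library (as at 17.0% of tested genes in this direction), and it went opposite to S1PR1 in Rec-1. Its sgRNA effect had a limma adjusted p of 0.192.

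Of 11 enzymes and transporters of sphingosine-1-phosphate and oxysterol 4 were tested. SPHK1, a kinase that makes sphingosine-1-phosphate, was lower in all 4 guide libraries, at 6.36, 2.33 and 2.51 FPKM in Jeko and 3.54, 0.351 and 0.452 in Rec-1 (limma adjusted p 0.161). SGPP1, a phosphatase that degrades it, was higher in all 4, at 7.83, 9.83 and 13.4 FPKM in Jeko and 11.5, 35.4 and 26.3 in Rec-1 (limma adjusted p 0.2). SPHK1 thus shared the direction of RGS1 in every guide library without passing the test.

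Among 17 G protein subunits 12 were tested, 11 of them without GNG2. Of these 11, 2 (GNAI3 and GNA13) were higher and 0 lower in all 4 guide libraries, against 21.0% and 21.1% of all tested genes. GNA13, the alpha subunit downstream of S1PR2, was 23.0, 33.4 and 34.7 FPKM in Jeko and 23.8, 56.4 and 49.7 in Rec-1 (limma adjusted p 0.177). GNAI2, the abundant Gi subunit on which RGS1 acts, was 100.8, 95.1 and 101.6 FPKM in Jeko and 80.6, 136.8 and 130.1 in Rec-1. Of 9 receptor kinases and arrestins 5 were tested, 4 of them without GRK5. Among these, GRK6 and ADRBK2 (GRK3), which desensitise receptors by phosphorylation, were higher and ARRB2, an arrestin, lower in all 4 guide libraries. ADRBK2 was 1.55, 2.88 and 2.77 FPKM in Jeko and 2.18, 8.65 and 8.57 in Rec-1 (limma adjusted p 0.177).

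Of 17 adhesion genes 11 were tested, 9 of them without ITGAL and ITGAX, which passed only through the Rec-1 guides. Among these 9, ITGA4 and ICAM3 were higher and ICAM2 lower in all 4 guide libraries, against the same 21.0% and 21.1%. ITGA4, the alpha chain of VLA-4, was 6.97, 18.2 and 15.8 FPKM in Jeko and 7.65, 10.8 and 10.2 in Rec-1 (limma adjusted p 0.193). ITGAL, the alpha chain of LFA-1, was at most 0.918 FPKM outside the Rec-1 guides and 28.0 and 32.0 in them, through which alone it passed the filter, the libraries that also held CD3D at 66.3 and 95.3 FPKM; the part of such markers in this result was not tested. Of 21 migration signalling genes 20 were tested, 19 of them without DOCK8. Among these 19, 5 were higher and 3 lower in all 4, near the 21.0% and 21.1% of all tested genes. STK4, a kinase needed for lymphocyte adhesion, was 12.4, 21.8 and 24.7 FPKM in Jeko and 13.9, 23.1 and 27.4 in Rec-1 (limma adjusted p 0.169), and RAC2, PIK3CG, DOCK2 and CDC42 were also higher and CORO1A, RASGRP2 and ARHGEF1 lower in all 4. Of 24 KLF, FOXO and related factors 16 were tested, 15 of them without MEF2C. Among these 15, 5 were higher and 0 lower in all 4, against 21.0% and 21.1%. FOXO1, which is known to drive KLF2 in lymphocytes, was 3.49, 4.26 and 6.59 FPKM in Jeko and 7.90, 17.6 and 21.9 in Rec-1 (limma adjusted p 0.203), so it was highest in the 2 libraries where KLF2 was lowest. KLF10, KLF12, KLF16 and FOXO4 were also higher in all 4.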

How the data were processed

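The authors deposited FPKM values, per the file headers, in 1 table with 6 columns, 1 per library. TopHat and hg19 are named in the submitters' processing notes; the program that computed FPKM, the annotation and the use of strand are not given in the sources used here. Fragment depth is unknown, so no counting interval is given and a value of 0 is described as listed at 0. FPKM summed to between 905778 and 1160107 per library.

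The 9 genes, the lists and the tests were chosen with earlier results of these data known. Values were analysed as log2(FPKM + 1). limma 3.58.1 (R 4.3.3; lmFit, eBayes with trend) was run on the 11400 genes averaging 1 FPKM or more. The fits were sgRNA against control with line as covariate (6 libraries), the interaction of line and sgRNA (6 libraries), and Rec-1 against Jeko guides (4 libraries). Benjamini-Hochberg adjustment covered all genes tested, with a threshold of 0.05. The sgRNA fit was tested on simulated data of 11400 genes with 200 changed. It called 75% of those changed by 2 on the log2 scale and 93% of those changed by 4, with 7 false calls. The simulated noise was Gaussian and independent between libraries, and the largest residual SDs were capped. These shares may therefore not hold for the real libraries. Recovery was not tested for genes with opposite differences in the 2 lines, such as RGS2 and CXCR4. Alternatives were a pseudocount of 0.1, other filters, quantile normalization, equal sums without MIR6723 and MIR4461, adjustment for transcript length (known for 97.1% of tested genes), the guide number as block, each library left out, and, chosen after seeing the data, Jeko alone. Named genes are the 9, up to 3 per list with 1 sign in all 4 differences and the largest mean difference (and any past the threshold), the 5 nearest to RGS1, and genes marked as picked later, or chosen after their values were seen: GNAI2, RGS10, RGS16, ACKR4, CCR10, CCRL2, ICAM2, DOCK2, CDC42, CORO1A, RASGRP2, ARHGEF1, KLF12 and KLF16. One marker gene of the lists is not reported here. Positions are from GENCODE v44 on GRCh37. Python 3.11.15, pandas 2.3.3 and matplotlib 3.10.9 were used for the rest.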

Additional observations from a re-analysis of the deposited data

Results flagged for a closer look

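The difference from control passed limma's interaction test between the lines at RGS2 (3.53), CXCR4 (−2.82), S1PR1 (−4.27) and CCR7 (−4.46), a test that 6.94% of tested genes passed. For RGS13 it was 4.03, with no test, since the gene passed the filter only through the Rec-1 guide libraries. It was −2.19 for GPR183 and −1.79 for CXCR5, which did not pass (limma adjusted p 0.22 and 0.233), although both guides were above control in Jeko and below it in Rec-1, as at 10.8% of tested genes. RGS1 was not tested for this. Each line has 1 control, and the library labelled Rec-1 control resembles the Jeko control more than the Rec-1 guide libraries.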

How the results depend on the processing

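The number of genes called for the sgRNA effect, 28, moved to 12 with all genes above 0, to 17 with the length adjustment, to 9 with guide number as replicate block and to 50 with the Jeko libraries alone, and ran from 11 to 2180 when a library was left out, the highest without the Jeko control. The interaction count of 791 went to 318 with a minimum mean of 5 FPKM and from 75 to 454 with a guide library left out. The count for Rec-1 against Jeko guides, 2933, went to 1529 with that minimum and from 847 to 1253 with a guide library left out. The sgRNA effect changed sign without the Rec-1 control, and equally with Jeko alone, at RGS2 (−1.48), RGS13 (−0.042), CXCR4 (0.63), CXCR5 (0.70), CCR7 (0.95), S1PR1 (0.56) and GPR183 (0.63). Without the Jeko control it was 2.05, 3.99, −2.19, −1.09, −3.51, −3.71 and −1.55 in the same order, and these 2 fits gave the lowest and highest values for each of the 7 genes.

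The guide number is shared between lines only as a number: deviations of same-numbered guides correlated at 0.0998 over tested genes. For the sgRNA effect and for Rec-1 against Jeko guides the block changed no call among the 7 genes other than RGS1 and RGS13, which are given no test. The interaction was not fitted with the block. CCR7 and S1PR1 lost the interaction call with all genes above 0 tested (limma adjusted p 0.0691 and 0.0547). Unknown depth limits what can be said of values near 0, such as S1PR1 in the Rec-1 guides and RGS13 elsewhere.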
